A study of Gallus gallus with 12 samples.

Results

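The miR-130, miR-301 and miR-454 hairpins were taken by name from a small RNA sequencing study of chicken embryo cells, as the hairpins that carry exactly 1 of these family numbers and at most a letter after it. They were 6 of the 850 hairpins of the table aligned to chicken: gga-mir-130b, gga-mir-454, gga-mir-301a, gga-mir-130a, gga-mir-301b and gga-mir-130c. The hsa- hairpins of the same numbers, 5 of 1913 in the table aligned to human, served as a check on the same libraries. All embryos received a GFP expression vector by electroporation and were grown to HH4-5. In the knockdown arm the vector was given with constructs that, per the labels, delete or knock down chick miR-302, and in the overexpression arm with constructs for human miR-302. In each arm, cells with GFP (GFP+) were sorted from cells without it (GFP-). This gave 4 groups of 3 libraries, knockdown GFP+ and knockdown GFP- as well as overexpression GFP+ and overexpression GFP-. The GFP- cells come from the electroporated embryos and carry the same genotype label as the GFP+ cells. No label says that replicates came from different embryos, so a p-value here measures the spread between samples that may differ only technically.

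A microRNA is cut from a hairpin precursor and guides the silencing complex to messages that pair with its seed, the bases near its 5′ end. MicroRNAs of the miR-130, miR-301 and miR-454 group have closely similar seeds and are classed as 1 family, and their seed shares a run of bases, shifted in position, with those of miR-302 and miR-17. In human cells family members are known to act on messages of growth control and of the TGF-β pathway, and miR-130a is known from endothelial cells.

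In the RefSeq gene table the genes of the 6 hairpins lie in 2 runs. MIR130B, MIR454, MIR301A and MIR130A follow each other on chromosome 15, in that order and with no other listed gene between them, and TOP3B, a topoisomerase gene, comes next. MIR301B and MIR130C are neighbours on chromosome 19, between SKA2P1 and PRR11. No hairpin gene outside the family directly neighbours a member. The chromosome 15 run held 39934 of the family's 40533 reads over the 12 libraries (98.5%), and the chromosome 19 pair held 599 reads (1.48%). All listed mature arms were at 0, so the values do not tell which arm of a hairpin was read. Because the mature RNAs of the family are alike, members can share reads, and the sources used here do not give the rule for assigning those.

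Depth differed widely between the libraries. The 3 overexpression GFP+ libraries held between 1292 and 3856 hairpin reads, and the other 9 between 7546 and 435716. In all 6 same-number pairs the GFP+ library was the shallower one. Levels are the authors' normalized reads, in which 1 read counted for 6.68, 24.4 and 15.9 in overexpression GFP+ replicates 1, 2 and 3, and for 0.1 to 0.158 in each knockdown GFP- library. The Wilson and Poisson intervals and the floors below cover counting error only. Intervals of log2 folds are from the limma fit and reflect the spread between libraries. Tests were run on the 132 hairpins of the table aligned to chicken whose mean over all libraries reached 10 normalized reads. The miR-302 and miR-367 hairpins, known from early embryos, took 15.6% to 48.1% of the hairpin reads of each library. Their summed level in the knockdown arm was 11884.9 to 17881.7 in GFP+ and 17803.9 to 22238.9 in GFP- libraries. The overexpression arm had 4010.2 to 8457.6 in GFP+ and 6192.8 to 17946.5 in GFP- libraries. Its construct is for human miR-302, and in the table aligned to human hsa-mir-302d averaged 472.1 ± 225.7 in overexpression GFP+ and 189.1 ± 122.5 in overexpression GFP- cells (log2 fold 1.39, not called by limma at an adjusted p of 0.0739). For hsa-mir-302a the means were 198.8 in GFP+ and 116.4 in GFP- cells (log2 fold 1.08, SE 0.52, adjusted p of 0.169 in limma). hsa-mir-302b went the other way, with 2363.8 ± 867.4 in GFP+ and 4247.4 ± 2834.5 in GFP- cells (log2 fold -0.70). So did hsa-mir-302c, with means of 390.7 in GFP+ and 467.8 in GFP- cells (log2 fold -0.18). hsa-mir-367 and hsa-mir-302f had no reads in overexpression GFP+ cells. In the table aligned to chicken, limma called 2 of the 5 listed hairpins lower in this arm, gga-mir-302a and gga-mir-367, beside 9.85% of all hairpins. gga-mir-367 was at 0 in overexpression GFP+ cells, so the size of its log2 fold depends on the 1 added to each value. The edgeR and DESeq2 results for these 2 hairpins are not given. The 5 tested human hairpins of the miR-302 and miR-367 list, not all named here, had a median log2 fold of 1.08. The tested hairpin not named thus lay at or above 1.08, on the side of hsa-mir-302d and hsa-mir-302a. The median of all human hairpins was -0.47. The human list summed to 2562.0 to 4986.6 in overexpression GFP+ and 2498.7 to 8840.9 in overexpression GFP- libraries, so its median fold does not describe its sum. Groups are called by their labels.

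gga-mir-454 was the leading member. Its mean over the 12 libraries was 706.7 normalized reads, the 13th highest of all hairpins in the table. gga-mir-130b followed at 136.0, gga-mir-130a at 90.6 and gga-mir-301a at 25.8. The chromosome 19 members averaged 7.0 (gga-mir-130c) and 4.2 (gga-mir-301b) and were below the level for testing. gga-mir-454, gga-mir-130b and gga-mir-130a had reads in all 12 libraries, gga-mir-301a in 10, gga-mir-301b in 9 and gga-mir-130c in 8.

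**Figure D1:**
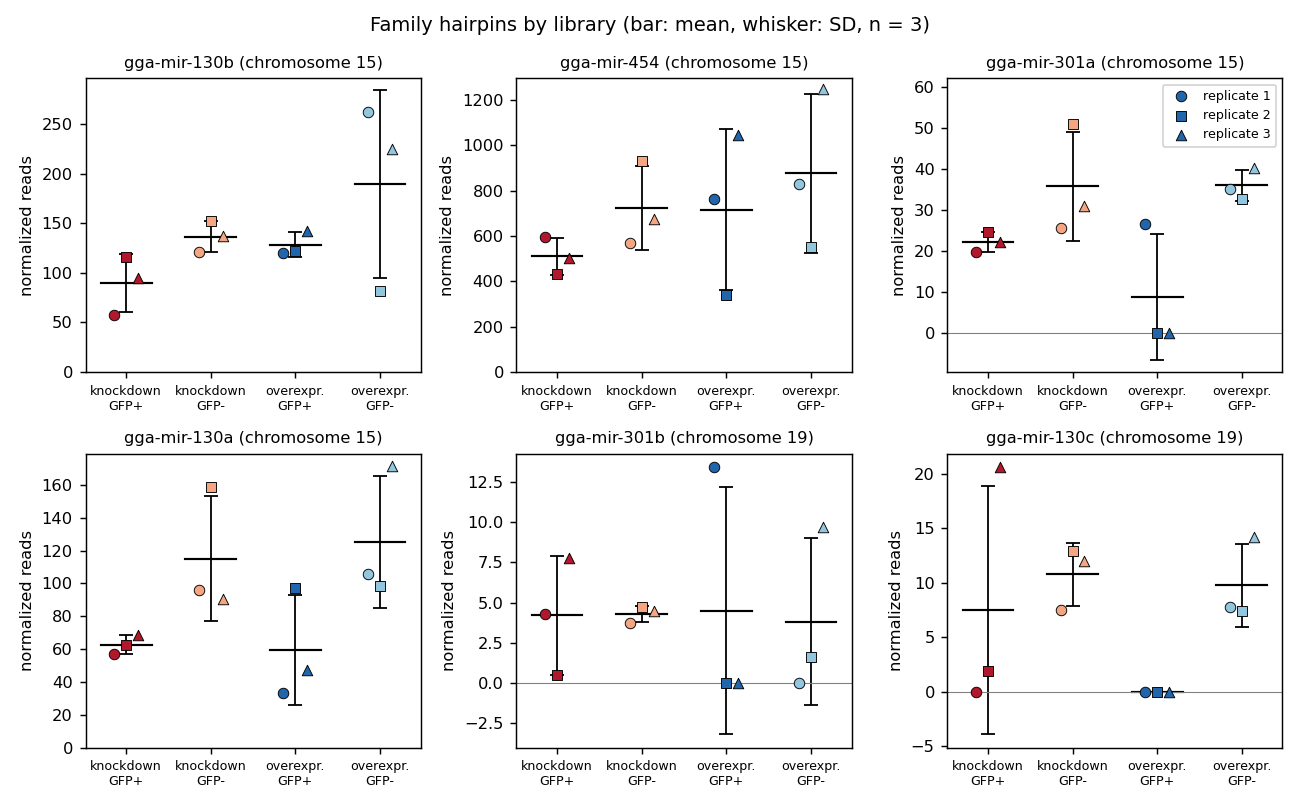
Normalized reads (y axis, linear, a scale of its own in each panel) of the 6 family hairpins in the 12 libraries of the table aligned to chicken. Symbols are replicates, bars are group means and whiskers are SDs (n = 3); gga-mir-301a and gga-mir-130c stand at 0 in several overexpression GFP+ libraries, and gga-mir-454 has by far the highest levels.

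The order of the members was the same in the knockdown GFP+, knockdown GFP- and overexpression GFP- groups, with gga-mir-454 first, then gga-mir-130b, gga-mir-130a, gga-mir-301a, gga-mir-130c and gga-mir-301b. Of the family's reads, gga-mir-454 took 73.0% ± 7.05 in knockdown GFP+, 70.4% ± 1.10 in knockdown GFP-, 75.1% ± 12.5 in overexpression GFP+ and 70.4% ± 3.19 in overexpression GFP- libraries (SD, n = 3 each). gga-mir-130b took 13.1% ± 5.10 in knockdown GFP+, 13.6% ± 1.71 in knockdown GFP-, 15.3% ± 5.6 in overexpression GFP+ and 15% ± 5.47 in overexpression GFP- libraries. For both hairpins the group means differed by less than the larger of the SDs.

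Neighbours in the order were not equally far apart. gga-mir-454 lay above gga-mir-130b in each of the 12 libraries. gga-mir-130b and gga-mir-130a overlapped in overexpression GFP- cells, with 81.9 to 261.8 normalized reads of gga-mir-130b and 98.3 to 171.4 of gga-mir-130a. In knockdown GFP- cells they also overlapped, with 121.0 to 152.1 of gga-mir-130b and 90.5 to 158.6 of gga-mir-130a. These are levels per hairpin; hairpins were not scaled for length.

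**Figure D2:**
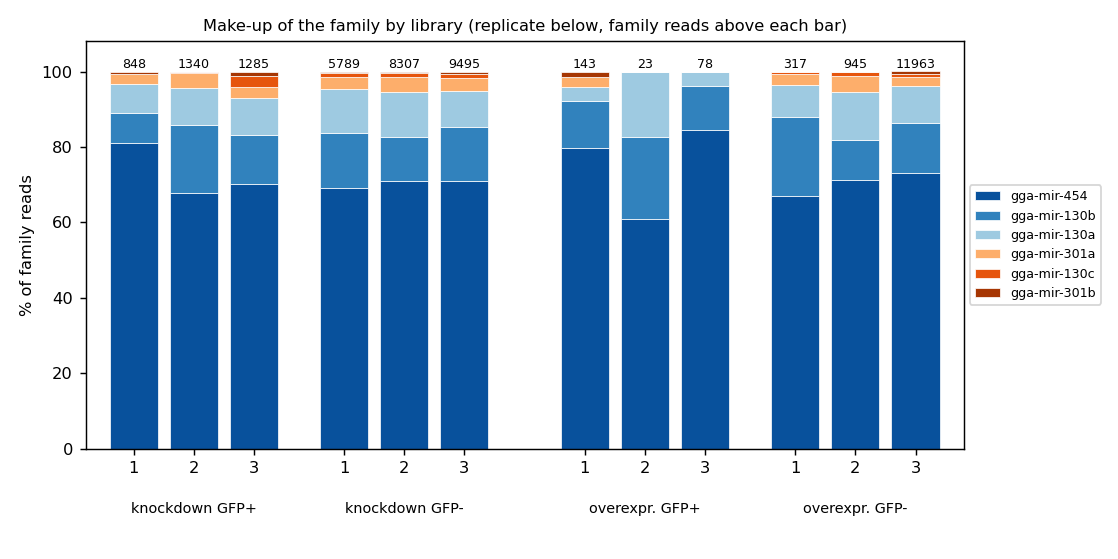
Percent of the family's reads (y axis) taken by each of the 6 hairpins in each library of the table aligned to chicken, with the replicate number below and the family reads above each bar. gga-mir-454 takes most of the reads in every library, between 60.9% and 84.6%, and both extremes are in the overexpression GFP+ group, whose libraries hold 143, 23 and 78 family reads.

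The first comparison asked how the family stood in cells that took up the constructs against chick miR-302. gga-mir-454 had 595.2, 432.3 and 502.4 normalized reads in knockdown GFP+ replicates 1, 2 and 3, against 568.9, 929.1 and 673.4 in knockdown GFP- replicates 1, 2 and 3. The groups overlapped, since GFP+ replicate 1 lay above GFP- replicate 1. The log2 fold was -0.49 (SE 0.42, 95% interval -1.40 to 0.43, limma adjusted p = 0.628).

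gga-mir-130b had 58.0, 115.6 and 94.8 normalized reads in knockdown GFP+ cells, against 121.0, 152.1 and 137.1 in knockdown GFP- cells. Every GFP+ library lay below every GFP- library, with GFP+ replicate 1 the lowest. Its log2 fold was -0.66 (SE 0.44, interval -1.62 to 0.31, limma adjusted p = 0.509).

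gga-mir-130a had 57.2, 62.3 and 68.6 normalized reads in knockdown GFP+ cells, against 96.2, 158.6 and 90.5 in knockdown GFP- cells. These groups did not overlap either, and the GFP+ replicates were closely alike (62.7 ± 5.7, against 115.1 ± 37.8 in GFP- cells, SD, n = 3 each). The log2 fold was -0.82 (SE 0.44, interval -1.79 to 0.15), with an adjusted p of 0.367 in limma, 0.0514 in edgeR and 0.0619 in DESeq2, and 0.0514 to 0.742 over all 23 alternatives. gga-mir-301a had 19.9, 24.7 and 22.3 normalized reads in GFP+ cells, against 25.6, 50.9 and 31.1 in GFP- cells, again without overlap. Its log2 fold was -0.61 (SE 1.08, interval -2.98 to 1.76, limma adjusted p = 0.929).

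Of the 4 members tested in the knockdown arm limma called none, beside 14 of all 132 hairpins (10.6%), of which 1 was called lower (0.758%). edgeR called 22% and DESeq2 27.3% of all hairpins, and neither called a member. The GFP+ libraries lay below all GFP- libraries in 3 of the 4 tested members, against 26.5% of all tested hairpins. The log2 folds of the 4 members were below 0 under each of the 22 or 23 alternatives tried for each. Changing the filter, adding the block, fitting the compared groups only or leaving out an overexpression library could not move these log2 folds. All tested hairpins together had a median log2 fold of -0.17, which was -0.47 with TMM scaling and -0.04 with TMMwsp scaling. Relative to the median of -0.17, the members stood at -0.48 (gga-mir-130b), -0.31 (gga-mir-454), -0.43 (gga-mir-301a) and -0.65 (gga-mir-130a). Of all tested hairpins, 21 had a lower log2 fold than gga-mir-130a.

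By same-number pairs, gga-mir-130b, gga-mir-301a and gga-mir-130a were lower in GFP+ cells in 3 of 3 pairs. For gga-mir-130a the log2 differences were -0.74, -1.33 and -0.40 in pairs 1, 2 and 3. gga-mir-454 was lower in 2 of 3 pairs, at 0.07, -1.10 and -0.42. Pair 2 held the largest difference for gga-mir-454, gga-mir-301a and gga-mir-130a, whose GFP- replicate 2 was the highest of its group. The share of all tested hairpins lower in 3 of 3 pairs is not given. In the limma fit 62.9% of them had a log2 fold below 0, so these pair counts are a description only.

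The chromosome 19 pair varied more between the knockdown GFP+ libraries. gga-mir-130c had 0, 1.9 and 20.6 normalized reads in knockdown GFP+ cells (0, 4 and 37 reads), against 7.5, 12.9 and 12 in knockdown GFP- cells. gga-mir-301b had 4.3, 0.5 and 7.8 in GFP+ cells, against 3.7, 4.7 and 4.5 in GFP- cells. GFP+ replicate 3 was the highest of all 12 libraries for gga-mir-130c, and the groups overlapped for both hairpins.

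The share of the family's reads on chromosome 19 was 0.590%, 0.373% and 3.97% in the knockdown GFP+ libraries, against 1.36%, 1.35% and 1.74% in the knockdown GFP- libraries. The 95% Wilson interval of GFP+ replicate 3 was 3.03% to 5.18%, apart from those of GFP+ replicates 1 (0.252% to 1.37%) and 2 (0.159% to 0.871%). The spread among the knockdown GFP+ libraries for this pair is thus larger than counting error.

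**Figure D3:**
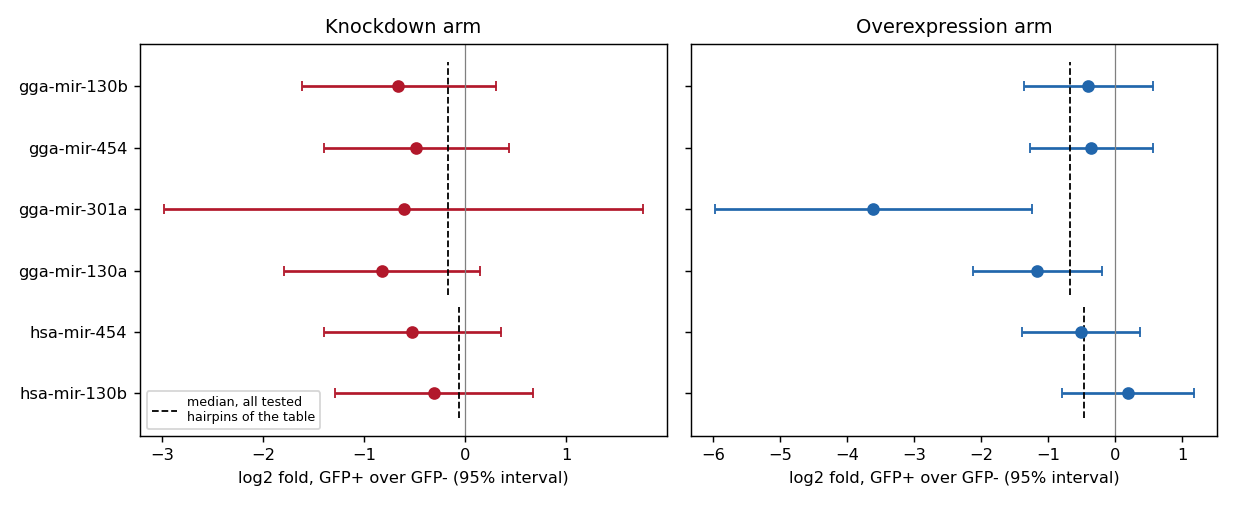
log2 fold of GFP+ over GFP- cells (x axis) for the 4 tested chicken and 2 tested human hairpins of the family, in the knockdown arm on the left and the overexpression arm on the right. Points are limma estimates on log2(normalized reads + 1) with 95% intervals, not adjusted for the number of hairpins. Dashed lines mark the median of all tested hairpins of the same table (chicken -0.17 and -0.67). The gga-mir-301a and gga-mir-130a intervals in the overexpression arm do not include 0. That of gga-mir-130a includes the median of -0.67, and limma did not call this hairpin (adjusted p = 0.0802).

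The overexpression arm asked the same of cells that took up the construct for human miR-302. gga-mir-301a was the member that passed the test there, and it rests on few reads. It had 26.7, 0 and 0 normalized reads in overexpression GFP+ replicates 1, 2 and 3 (4, 0 and 0 reads), against 35.2, 32.8 and 40.2 in overexpression GFP- replicates 1, 2 and 3 (9, 40 and 281 reads). All GFP+ libraries lay below all GFP- libraries, and GFP+ replicate 1 stood close to the GFP- group. It averaged 8.9 ± 15.4 in GFP+ and 36.0 ± 3.8 in GFP- cells (SD, n = 3 each), and fell by 3.61 on the log2(normalized reads + 1) scale (SE 1.08, interval -5.98 to -1.24, limma adjusted p = 0.0351).

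The size of the gga-mir-301a fall depends on the pseudocount, with a log2 fold of -4.26 at 0.5 and -1.57 at 10. On the reads themselves edgeR gave -1.24 (adjusted p = 0.343) and DESeq2 -1.28 (adjusted p = 0.316). At the mean level of the GFP- libraries, GFP+ replicates 1, 2 and 3 would have held 5.39, 1.48 and 2.27 reads. The 1.48 and 2.27 reads expected in replicates 2 and 3 are each under the limit of 3 reads that a count of 0 allows. Taken singly, neither count of 0 thus shows a fall. The 4 reads seen, of 9.14 expected, gave a ratio of 0.438 with a Poisson interval of 0.119 to 1.12. Over its 22 alternatives the adjusted p ran from 0.000109 to 0.343, and 6 of them kept the call. Leaving out any 1 library except overexpression GFP+ replicate 1 moved the adjusted p above the threshold, to between 0.0512 and 0.108 (limma). Without overexpression GFP+ replicate 1, the only one of its group with gga-mir-301a reads, the log2 fold was -5.21.

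gga-mir-130a had 33.4, 97.5 and 47.6 normalized reads in overexpression GFP+ cells (5, 4 and 3 reads), against 105.5, 98.3 and 171.4 in overexpression GFP- cells. The groups did not overlap, but GFP+ replicate 2 at 97.5 was almost level with GFP- replicate 2 at 98.3. The log2 fold was -1.16 (SE 0.44, interval -2.13 to -0.19), with an adjusted p of 0.0802 in limma, 0.165 in edgeR and 0.0695 in DESeq2. Over 23 alternatives the adjusted p ran from 0.00986 to 0.333, and 1 of them called it, the fit without GFP+ replicate 2 (log2 fold -1.58). The 12 reads seen in GFP+ cells compare with 31.7 expected at the GFP- mean, a ratio of 0.378 with a Poisson interval of 0.195 to 0.661. This interval, like that of gga-mir-301a, takes the GFP- mean as known and leaves out the spread between libraries. All tested hairpins of this arm had a median log2 fold of -0.67 in limma, so a ratio of 1 is not their middle.

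**Figure D4:**
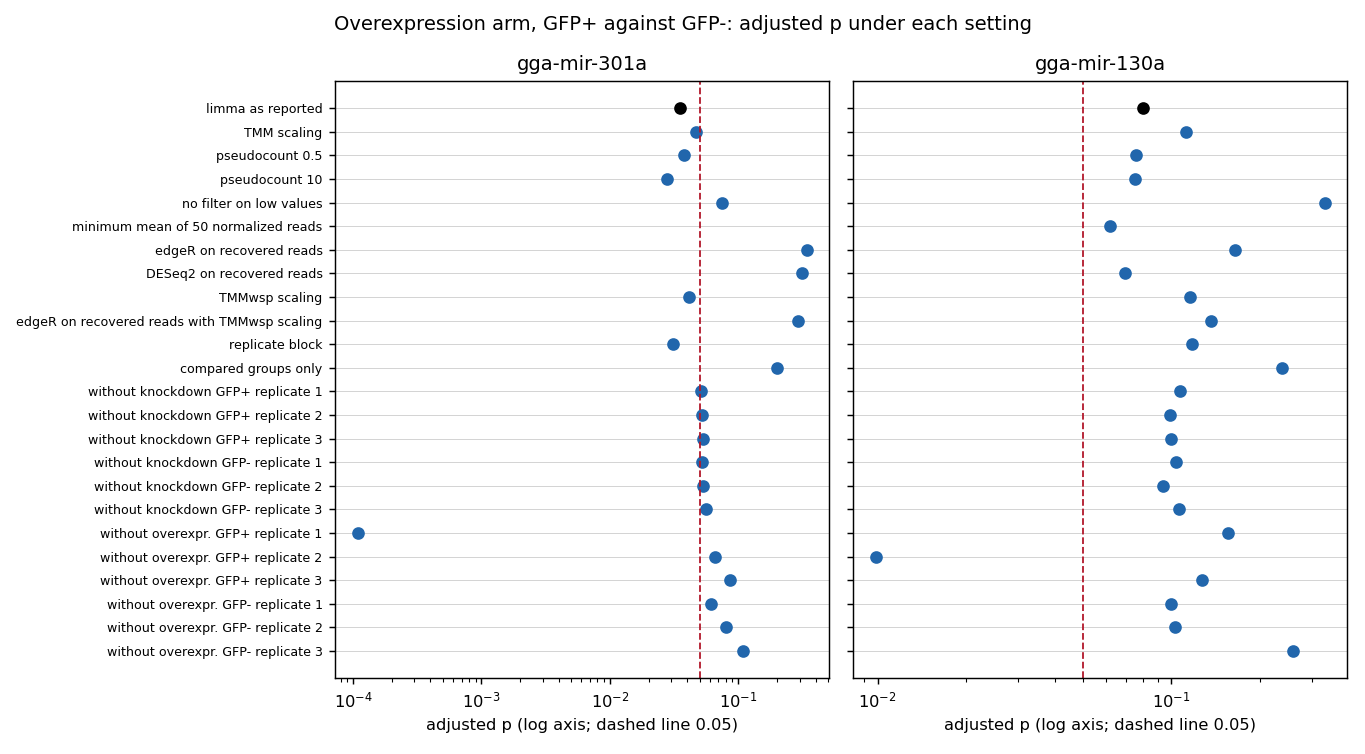
Adjusted p (x axis, logarithmic) of gga-mir-301a and gga-mir-130a for overexpression GFP+ against GFP- cells, under each setting (y axis); the black point is the limma fit as reported and the dashed line the threshold of 0.05. gga-mir-301a lies left of the line in the reported fit and 6 alternatives, and gga-mir-130a in 1 alternative.

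gga-mir-130b had 120.3, 121.9 and 142.7 normalized reads in overexpression GFP+ cells, against 261.8, 81.9 and 225.4 in overexpression GFP- cells. Its GFP+ libraries were alike, on 18, 5 and 9 reads, and lay within the range of the GFP- libraries. The log2 fold was -0.40 (SE 0.44, interval -1.36 to 0.56, limma adjusted p = 0.527).

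gga-mir-454 had 761.9, 341.2 and 1046.7 normalized reads in overexpression GFP+ cells, against 828.3, 552.0 and 1249.1 in overexpression GFP- cells. In both groups replicate 2 was the lowest and replicate 3 the highest, and the groups overlapped. The log2 fold was -0.36 (SE 0.42, interval -1.27 to 0.56, limma adjusted p = 0.553) and was 0.11 without GFP+ replicate 2. In all 3 same-number pairs it was lower in GFP+ cells, by log2 differences of -0.12, -0.69 and -0.25.

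By pairs 1, 2 and 3 of this arm the log2 differences were -1.12, 0.57 and -0.66 for gga-mir-130b and -1.63, -0.01 and -1.83 for gga-mir-130a. gga-mir-301a had -0.38, -5.08 and -5.36, the last 2 with no read in the GFP+ library and so set by the pseudocount of 1. gga-mir-130a and gga-mir-301a were thus lower in GFP+ cells in 3 of 3 pairs, and gga-mir-130b in 2 of 3. The share of all tested hairpins lower in 3 of 3 pairs is not given for this arm either. Of all tested hairpins 67.4% had a log2 fold below 0 here in limma.

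gga-mir-130c had no read in any overexpression GFP+ library, against 7.8, 7.4 and 14.2 normalized reads in overexpression GFP- cells. At the GFP- mean, 2.48 reads would have been expected in the 3 GFP+ libraries together, under the floor of 3 reads, so a difference was not detectable at this depth. gga-mir-301b had 13.4, 0 and 0 in GFP+ cells (2, 0 and 0 reads), against 0, 1.6 and 9.7 in GFP- cells, and those groups overlapped.

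limma thus called 1 of the 4 tested members in the overexpression arm, lower in GFP+ cells, beside 25 of all 132 hairpins (18.9%), of which 13 were lower (9.85%). The GFP+ libraries lay below all GFP- libraries in 2 of the 4 tested members, against 22% of all tested hairpins. edgeR called 18.2% and DESeq2 22% of all hairpins, and neither called a member. The median log2 fold of all tested hairpins was -0.67, and -0.56 with TMM scaling. It was -0.32 at a pseudocount of 10, -0.11 in edgeR and -0.26 in DESeq2. Relative to the median of the same fit, gga-mir-130b stood at 0.26 as reported, -0.07 at a pseudocount of 10, -0.32 in edgeR and -0.28 in DESeq2, so its side of the median depends on the setting. gga-mir-454 stood at 0.31, -0.03, -0.02 and 0.01 in the same order. gga-mir-130a, at -0.49, -0.71, -0.98 and -1.07, and gga-mir-301a, at -2.94, -1.26, -1.13 and -1.02, were below it in each of the 4. Of all tested hairpins, 4 had a lower log2 fold than gga-mir-301a and 44 a lower one than gga-mir-130a.

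The effects in the 2 arms were compared directly, as the overexpression GFP+ over GFP- log2 fold minus the knockdown one. The difference was 0.25 for gga-mir-130b (interval -1.10 to 1.61), 0.13 for gga-mir-454 (-1.16 to 1.42), -3.0 for gga-mir-301a (-6.35 to 0.35) and -0.33 for gga-mir-130a (-1.71 to 1.04). Their limma adjusted p were 0.927, 0.93, 0.818 and 0.858. None of the 132 hairpins (0%) was called by limma, edgeR or DESeq2, while 9, 3 and 8 had an unadjusted p under 0.05 in these tools. Without overexpression GFP+ replicate 1, limma called gga-mir-301a (-4.60, adjusted p = 0.00176), beside 6 of all 132 hairpins. The overexpression GFP+ libraries then left held no gga-mir-301a read, so the size of this value depends on the pseudocount. Each interval includes 0 and is wide, so neither a difference between the arms nor a like response is shown.

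GFP- cells of the overexpression arm were also set against GFP- cells of the knockdown arm. The log2 folds were 0.31 for gga-mir-130b (interval -0.65 to 1.27), 0.23 for gga-mir-454 (-0.69 to 1.14), 0.06 for gga-mir-301a (-2.31 to 2.43) and 0.12 for gga-mir-130a (-0.85 to 1.09), each with a limma adjusted p of 0.989. The groups overlapped for all 6 members, while 6.82% of the tested hairpins were lower in the overexpression arm without overlap. The share that was higher there without overlap, the side of the members' log2 folds, is not given. limma called 0% of the 132 hairpins, with 10 at an unadjusted p under 0.05, edgeR 0% with 15, and DESeq2 8 (6.06%), none of them a member. gga-mir-301a averaged 36.0 ± 3.8 in overexpression GFP- cells and 35.8 ± 13.3 in knockdown GFP- cells (SD, n = 3 each), the closest of the members. The overexpression GFP- group varied less than the knockdown GFP- group for gga-mir-301a, but more for gga-mir-130b (189.7 ± 95.1, against 136.7 ± 15.6 in knockdown GFP- cells).

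Summed over its 6 hairpins, the family stood at 734.7, 637.2 and 716.6 normalized reads in knockdown GFP+ cells, against 823.0, 1308.4 and 948.5 in knockdown GFP- cells. It stood at 955.8, 560.6 and 1237.0 in overexpression GFP+ cells, against 1238.6, 774.0 and 1709.9 in overexpression GFP- cells. The knockdown groups did not overlap, the overexpression groups did, and in all 6 same-number pairs the GFP+ library was lower by normalized reads. The log2 ratio of group means was -0.56 in the knockdown arm and -0.44 in the overexpression arm, as a description with no test. Since gga-mir-454 holds most of the sum, these ratios mainly give that hairpin's level.

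As a percent of all hairpin reads the family took 1.72, 1.63 and 1.60 in knockdown GFP+ replicates 1, 2 and 3, against 1.78, 2.99 and 2.18 in the GFP- replicates. In the overexpression arm it took 3.71, 1.78 and 4.36 in GFP+ replicates, against 4.20, 1.79 and 4.31 in GFP- replicates. By this measure replicate 3 of the overexpression arm was higher in GFP+ cells, unlike by normalized reads. Replicates 1 and 3 of this arm lay above all knockdown libraries in both GFP+ and GFP- cells, while both replicates 2 lay within the knockdown range. The GFP+ replicate 2 share rests on 23 family reads, with a Wilson interval of 1.19% to 2.66%, below those of GFP+ replicates 1 (3.16% to 4.35%) and 3 (3.51% to 5.41%).

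**Figure D5:**
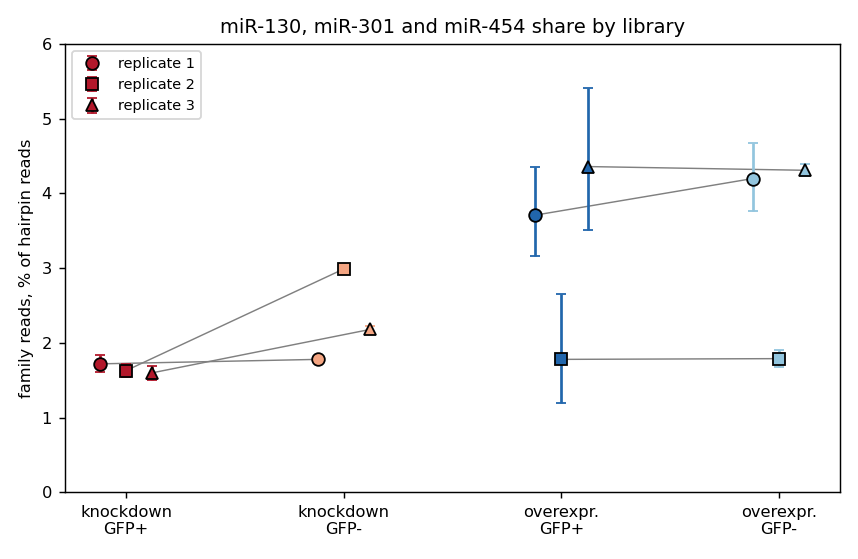
Family reads as a percent of all hairpin reads of each library (y axis) in the table aligned to chicken, with 95% Wilson intervals for counting error and lines joining same-number GFP+ and GFP- libraries. In the overexpression arm pairs 1 and 3 lie between 3.71% and 4.36%, and pair 2 at 1.78% and 1.79%.

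By this measure the overexpression groups were closer than by normalized reads, with a mean of 3.28% ± 1.34 in GFP+ and 3.43% ± 1.42 in GFP- libraries (SD, n = 3 each), a log2 ratio of -0.065. The knockdown groups had 1.65% ± 0.06 in GFP+ and 2.32% ± 0.62 in GFP- libraries, a log2 ratio of -0.49. The same libraries also differed in miR-302 and miR-367, which took 15.6%, 26.9% and 17.6% of the reads of overexpression GFP+ replicates 1, 2 and 3, and 21.0%, 41.6% and 25.3% of the GFP- replicates. With the miR-302 and miR-367 reads left out, the family took 4.39%, 2.43% and 5.29% in overexpression GFP+, against 5.32%, 3.07% and 5.77% in overexpression GFP- libraries, so replicate 2 remained the lowest of both groups. In the knockdown arm the same measure gave 2.96%, 2.34% and 2.63% in GFP+, against 3.42%, 5.05% and 3.99% in GFP- libraries.

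The let-7 and the liver and gut lists held hairpins called higher in GFP+ cells of both arms. Of all 132 tested hairpins limma called 14 (10.6%) in the knockdown arm, 1 of them lower in GFP+ cells. In the overexpression arm it called 25 (18.9%), 13 of them lower. The let-7 hairpins summed to 3275.9 to 4160.9 normalized reads in knockdown GFP+ and 308.2 to 691.6 in knockdown GFP- libraries, and to 1243.1 to 1855.5 in overexpression GFP+ and 148.5 to 451.3 in overexpression GFP- libraries. Of 13 let-7 hairpins 10 were tested, and limma called 8 higher in each arm, with gga-let-7l-1 and gga-let-7l-2 at 0 in all groups. The liver and gut list summed to 2481.4 to 3268.3 in knockdown GFP+ and 131.1 to 493.9 in knockdown GFP- libraries, and to 950.6 to 1966.5 in overexpression GFP+ and 66.4 to 133.5 in overexpression GFP- libraries. Of its 7 hairpins 3 were tested, and 3 were called higher in the knockdown arm and 2 in the overexpression arm. gga-mir-122b, gga-mir-122b-1 and gga-mir-122b-2 were at 0 in all groups, and gga-mir-194 in overexpression GFP+ cells.

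The muscle and heart list summed to 71.0 to 165.1 in knockdown GFP+ and 249.9 to 688.3 in knockdown GFP- libraries, and to 24.4 to 190.3 in overexpression GFP+ and 266.2 to 1067.0 in overexpression GFP- libraries, with 3 of its 10 hairpins tested and 0 called. gga-mir-1c, gga-mir-499 and gga-mir-133c were at 0 in both GFP+ groups, gga-mir-206 and gga-mir-133a-2 in overexpression GFP+ cells, and gga-mir-1c in knockdown GFP- cells. Of the blood and endothelium list, with 56.9 to 93.6 in knockdown GFP+, 106.6 to 167.9 in knockdown GFP-, 33.4 to 97.5 in overexpression GFP+ and 314.5 to 470.8 in overexpression GFP- libraries, 1 of 5 was tested, gga-mir-126, which was called lower in the overexpression arm, and gga-mir-223 was at 0 in overexpression GFP+ cells. The neural list (miR-9 and miR-124) had 5 of its 10 tested and none called, at 192.3 to 296.3 in knockdown GFP+, 122.1 to 164.6 in knockdown GFP-, 147.0 to 222.0 in overexpression GFP+ and 107.3 to 140.7 in overexpression GFP- libraries, and gga-mir-9b-1 and gga-mir-9b-2 were at 0 in all groups. With 3 or 5 hairpins tested, 0 calls are near the shares of all hairpins called (10.6% and 18.9%) and are no result about those lists. The gga-mir-126 call stands beside 9.85% of all hairpins called lower in that arm. The part of these lists, and of the lower depth of the GFP+ libraries, in the family's values was not tested. In bulk samples fewer cells of a type and less RNA per cell cannot be told apart.

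The hairpins listed as having related seeds (miR-17, miR-20, miR-93, miR-106, miR-148, miR-152 and miR-302) were 10, and all were tested. In the knockdown arm 0 were called, with a median log2 fold of -0.40 against -0.17 for all hairpins. In the overexpression arm 2 of the 10 were called lower, beside 9.85% of all hairpins, with a median of -1.23 against -0.67. These were gga-mir-302a (1140.9 ± 581.6 in GFP+ and 2996.9 ± 1521.5 in GFP- cells, log2 fold -1.37, limma adjusted p = 0.0378) and gga-mir-17 (4.5 ± 7.7 in GFP+ and 36.3 ± 10.6 in GFP- cells, SD, n = 3 each, log2 fold -3.90, limma adjusted p = 0.012). gga-mir-17, of the proliferation-linked miR-17 family, rests on 2, 0 and 0 reads in overexpression GFP+ and 10, 30 and 316 reads in overexpression GFP- libraries. Its log2 fold was -4.56 at a pseudocount of 0.5 and -1.77 at 10, and neither edgeR (adjusted p = 0.128) nor DESeq2 (0.129) called it. The list's most abundant hairpins, gga-mir-302b, gga-mir-302d, gga-mir-302a and gga-mir-302c, had log2 folds of -0.43, -0.33, -0.36 and -0.10 in the knockdown arm, where limma called none of them.

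In the table aligned to human, from the same reads and so no independent evidence, hsa-mir-454 (mean 122.9 normalized reads) and hsa-mir-130b (67.9) led, and hsa-mir-301a (6.0), hsa-mir-301b (1.6) and hsa-mir-130a (1.1) were below the level for testing. hsa-mir-454 had 68.1, 74.7 and 121.6 in knockdown GFP+ cells, against 103.5, 161.3 and 111.8 in knockdown GFP- cells, and 134.0, 77.3 and 128.2 in overexpression GFP+ cells, against 173.2, 102.3 and 218.4 in overexpression GFP- cells. The groups overlapped in both arms, while 21.1% of the tested human hairpins in the knockdown and 17.5% in the overexpression arm were lower in GFP+ cells without overlap. Replicate 2 was again the lowest of both overexpression groups. The hsa-mir-454 values of overexpression GFP+ replicates 1, 2 and 3 rest on 17, 2 and 7 reads. In these libraries 1 read of the human table counted for 7.88, 38.7 and 18.3 normalized reads.

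hsa-mir-454 had a log2 fold of -0.53 in the knockdown arm (SE 0.40, interval -1.40 to 0.35, limma adjusted p = 0.512) and -0.51 in the overexpression arm (SE 0.40, interval -1.39 to 0.37, limma adjusted p = 0.41). hsa-mir-130b had 38.1, 59.4 and 52.8 in knockdown GFP+ cells, against 57.0, 71.2 and 56.8 in knockdown GFP- cells, and 63.1, 77.3 and 109.9 in overexpression GFP+ cells, against 99.5, 40.4 and 89.1 in overexpression GFP- cells. Its log2 fold was -0.31 (interval -1.29 to 0.67) in the knockdown and 0.19 (interval -0.79 to 1.17) in the overexpression arm, with limma adjusted p of 0.761 and 0.819. In the overexpression arm it was -0.31 with TMMwsp scaling and -0.0038 in edgeR. The hsa-mir-130b values of overexpression GFP+ cells rest on 8, 2 and 6 reads.

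No human member was called in any comparison by limma, beside 8.77% of the 114 tested hairpins in the knockdown arm, 18.4% in the overexpression arm, 2.63% for the difference of the arms and 0% between the GFP- groups, where 3 had an unadjusted p under 0.05 and edgeR called 1 (0.877%) and DESeq2 3 (2.63%). The human table held 47.3% as many reads on hsa-mir-130b as the chicken table on gga-mir-130b, 18.7% on hsa-mir-454 and 1.10% on hsa-mir-130a, each against the chicken hairpin of the same name.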

How the data were processed

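Small RNA of 12 libraries (4 groups of 3) was analysed from tables the authors deposited, 1 aligned to chicken and 1 to human. Groups and replicate numbers come from the sample titles. The submitters' processing notes name STAR 2.7.0f, cutadapt and FastQC 0.11.5 and the build hg38. The sources used here do not name the tool that counted the reads, the build used for chicken or the normalization. The deposited values are a normalized signal, and within 0.001 reads 100% of them were whole multiples of 1 step per library, so whole reads could be recovered. The tables held 911 chicken and 1918 human hairpin entries; 61 and 5 repeats of a name were dropped, none of them of the family. Hairpin reads per library ranged from 1292 to 435716 (chicken) and from 518 to 254098 (human).

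The log2 of each value plus 1 was fitted, for hairpins averaging 10 or more (132 chicken, 114 human), with limma 3.58.1 (R 4.3.3), on the 4 groups' means, with trended empirical Bayes and a two-sided Benjamini-Hochberg adjusted p under 0.05. The fits were checked on simulated data with changes set in the knockdown GFP+ libraries, for the knockdown comparison only. That check does not cover calls at the depth of the overexpression GFP+ libraries. Alternatives were TMM and TMMwsp scaling, pseudocounts of 0.5 and 10, other filters, edgeR 4.0.16 (quasi-likelihood) and DESeq2 1.42.0 on recovered reads, the compared groups alone, a replicate block and leaving out each library. TMMwsp scaling was added after seeing the data. In the chicken table same-number libraries deviated together from their group means (r of 0.15, 0.38 and 0.14 in the knockdown and 0.21, 0.32 and 0.11 in the overexpression arm). For libraries of unlike number r ran from -0.28 to 0.19 in the knockdown and from -0.39 to 0.11 in the overexpression arm. The values of r alone thus do not single out the pairing. The sample titles give a GFP+ library and its GFP- control the same number, and the numbers were taken to pair them.

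Gene order and chromosomes are from the RefSeq gene table, without coordinates. The members, lists and tests were chosen with earlier results of these data known. Named hairpins were every family member, the 5 most correlated with the family sum, called or most abundant members of the related-seed list, and hairpins next to a member. Other hairpins named, from the miR-302 and miR-367, let-7 and tissue lists, were chosen after their values were seen. The relation of seeds was not checked against sequences. No p is given for the family sum.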

Additional observations from a re-analysis of the deposited data

How the results depend on the processing

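Of 530 alternative values of the members' log2 folds, 477 kept their direction and side of the threshold, 16 lost a call, 2 gained one and 35 changed sign. No sign change touched a called value, and the cause was not tested. The 530 include fits that cannot move a log2 fold, only its adjusted p. Those change the filter, the block or the groups fitted, or leave out a library outside the comparison. The overexpression arm had 1 called member in the reported fit and 0 with no filter, a minimum mean of 50, edgeR, DESeq2, edgeR with TMMwsp scaling or the compared groups only. All chicken hairpins gave 20 calls of 666 with no filter, 28 of 69 at the minimum mean of 50 and 28 of 132 in edgeR with TMMwsp scaling. With 1 library left out, 1 member was called without overexpression GFP+ replicate 1 (gga-mir-301a) or replicate 2 (gga-mir-130a). Without replicate 2 the limma adjusted p of gga-mir-301a was 0.0653. Leaving out any other library gave 0 called members. At the minimum mean of 50 gga-mir-301a was not among the hairpins tested. The count for the difference between the arms was 0, and 0 to 1 with 1 library left out, beside 0 to 6 of all 132 chicken hairpins. With replicate number as a block no member's call changed in either table (gga-mir-301a adjusted p = 0.0309 and gga-mir-130a 0.117 in the overexpression arm, limma), and all chicken hairpins gave 11 calls in place of 14 in the knockdown and 33 in place of 25 in the overexpression arm. In the human table same-number pairs did not all deviate together (r of 0.04, -0.07 and -0.14 in the knockdown and 0.17, 0.36 and -0.13 in the overexpression arm), and the blocked counts of all hairpins were 9 in place of 10 and 17 in place of 21.

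Over all chicken hairpins the knockdown arm gave 29 calls in edgeR, 36 in DESeq2 and 39 with the compared groups only, against 14 reported, and 7 to 26 with 1 library left out. The overexpression arm gave 10 with the compared groups only, against 25 reported, and 15 to 42 with 1 library left out. With 1 library left out, the values whose sign changed had these ranges. Overexpression arm: -0.7 to 0.11 for gga-mir-454 and -0.21 to 0.43 for hsa-mir-130b. Difference between the arms: -0.26 to 0.57 for gga-mir-130b, -0.21 to 0.59 for gga-mir-454, -0.76 to 0.003 for gga-mir-130a and -0.29 to 0.27 for hsa-mir-454. GFP- groups: -0.0014 to 0.83 for gga-mir-130b, -0.068 to 0.52 for gga-mir-454, -0.14 to 0.34 for gga-mir-301a, -0.13 to 0.37 for gga-mir-130a and -0.029 to 0.61 for hsa-mir-130b. The summed chicken family between the GFP- groups had a log2 ratio of 0.27, and -0.029 to 0.52 with 1 library left out, lowest without overexpression GFP- replicate 3. The summed human family in the overexpression arm had a log2 ratio of -0.20, which was -0.47 to 0.043 with 1 library left out and 0.025 as a percent of each library's summed values.

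Changes of sign with scaling or tool were as follows. For the difference between the arms gga-mir-130a was 0.082 with TMM scaling and 0.10 in edgeR, gga-mir-130b was -0.055 and hsa-mir-130b -0.061 in edgeR with TMMwsp scaling, and hsa-mir-454 was -0.42 with TMMwsp scaling and -0.37 in edgeR with it. Between the GFP- groups gga-mir-301a was -0.046 with TMM scaling and -0.099 in edgeR, and gga-mir-130a -0.029 in edgeR. In the overexpression arm hsa-mir-130b was -0.0038 in edgeR, -0.31 with TMMwsp scaling and -0.40 in edgeR with it. The depth of the overexpression GFP+ libraries limits every value of that arm, since 3 reads were worth 20.1, 73.1 and 47.6 normalized reads there, above the GFP- level of gga-mir-301a in 2 of the 3.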

Other observations

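Across the 12 libraries the hairpins whose log2 level went most closely with the log2 sum of the family were gga-mir-1a-1 (Pearson r = 0.74), gga-mir-1a-2 (0.72), gga-mir-182 (0.70), gga-mir-221 (0.69) and gga-mir-181b-2 (0.67), given as a description without a test. They are the highest of the 128 tested hairpins outside the family, whose r ran from -0.73 to 0.74 with a median of 0.18. Libraries share depth and the GFP sort, and the 2 miR-1a hairpins are near-identical copies of a muscle microRNA that can share reads. gga-mir-1a-1 averaged 45.2 normalized reads in knockdown GFP+ and 263.7 in knockdown GFP- cells, and 44.3 in overexpression GFP+ and 269.8 in overexpression GFP- cells. gga-mir-182 averaged 148.5 in knockdown GFP+ and 230.0 in knockdown GFP- cells, and 143.4 in overexpression GFP+ and 208.8 in overexpression GFP- cells. Among the 4 tested members themselves r ran from 0.07 (gga-mir-130b and gga-mir-301a) to 0.57 (gga-mir-130b and gga-mir-454). Spearman's rho for these pairs was 0.46 and 0.67, and gga-mir-301a, at 0 in 2 shallow libraries, had a Pearson r of 0.31 and a rho of 0.69 with gga-mir-130a.

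By read totals, the names of the miR-301 hairpins did not match between the tables. hsa-mir-301a held 220 reads, close to the 193 of gga-mir-301b and far from the 1263 of gga-mir-301a, a comparison chosen after the values were seen. hsa-mir-301a and gga-mir-301b had reads in the same 9 libraries, and in no library did they differ by more than 19 reads. hsa-mir-301b held 23 reads. Read totals also matched across names outside miR-301. hsa-mir-454 held 5429 reads, near the 5445 of gga-mir-130b and far from the 28958 of gga-mir-454. hsa-mir-454 and gga-mir-130b had reads in all 12 libraries and differed by at most 146 reads in any of them. Such matches thus do not settle which hairpins correspond. As background, human miR-301a lies within SKA2 beside PRR11, and the chicken MIR301B lies between SKA2P1 and PRR11.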
